A study of Mus musculus with 12 samples.

Results

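The lipoxygenase and leukotriene pathway was followed in RNA sequencing of mouse colorectal tissue through 9 genes, Alox5, Alox5ap, Alox12, Alox15, Lta4h, Ltc4s, Ltb4r1, Cysltr1 and Cysltr2. The genes were chosen by their symbols, and all 9 were found by symbol among the 18514 genes of the count table. All 9 also passed the filter on low counts, which left 15484 genes for testing. None of the 9 was at 0 in any library.

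Lipoxygenases add oxygen to arachidonic acid and related fatty acids that phospholipase releases from membranes. Alox5 (5-lipoxygenase), working with its membrane partner FLAP (Alox5ap), makes leukotriene A4. Lta4h turns it into leukotriene B4, which draws neutrophils through the receptor Ltb4r1 (BLT1), while Ltc4s joins it to glutathione to start the cysteinyl leukotrienes, which act through Cysltr1 and Cysltr2 on vessels, smooth muscle and mucus secretion. Alox12 is the 12-lipoxygenase best known from platelets and also made in squamous epithelium. Alox15, the 12/15-lipoxygenase of mice, is best known from macrophages and eosinophils. In the gut this pathway is mostly studied in inflamed mucosa.

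The 12 libraries fell into 4 groups of 3, and male C57BL/6 mice bought at 4 weeks of age were used throughout. Ctrl mice received neither AOM nor DSS and did not swim, and Ctrl_Swim mice swam for up to 90 min per day. Model mice were injected once with the carcinogen azoxymethane (AOM, 10 mg/kg) and afterwards drank 2% dextran sulfate sodium (DSS), an irritant that causes colitis, in 3 cycles of 7 days. Model_Swim mice received the same AOM/DSS course and swam as Ctrl_Swim mice did. Mice that were not trained were placed in shallow water instead. The design therefore asks what AOM/DSS does to a gene, and whether swimming changes its level with or without AOM/DSS. The labels number the samples within a group but do not say that each came from a different mouse, so the p-values measure the spread between these samples. Replicates are called by their numbers here, as Ctrl 1 to 3, Ctrl_Swim 2 to 4, Model 1 to 3 and Model_Swim 1 to 3.

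Total counts were 17256953 to 19451055 per library, so that 3 counts correspond to 0.153 to 0.172 CPM (counts scaled to a common library size with TMM factors). Colon epithelial markers were high throughout, with a summed level of 10061 to 25557 CPM over 10 genes, lowest in Model 1 and Model 2. Some libraries stood apart. The 12 pancreatic acinar markers summed to 39340 CPM in Model 1 and 18872 CPM in Model 3, against 11.1 to 92.5 CPM in the other 10 libraries. Squamous epithelium markers (15 genes, led by the keratins Krt5, Krt14 and Krt10) summed to 941 to 2119 CPM in Ctrl_Swim 4, Model 1, Model 2, Model_Swim 2 and Model_Swim 3, and to 73.4 to 235 CPM elsewhere. Model 3 lay at 93.4 CPM, next to the Ctrl libraries at 77.6 to 90.5 CPM. For the genes that passed between Model and Ctrl, values without Model 1 or Model 3 are given where their absence ends a call. Without both, the Model group is a single library, whose spread is taken from the other groups. In bulk tissue, fewer cells of a type and less RNA per cell cannot be told apart.

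The proximal promoters of Alox12 and Alox5 are shown because these genes differed between Model and Ctrl in opposite directions, and because GC boxes in the ALOX5 promoter are well known from human cells. Each line gives the 250 bases before the start site in a table of RefSeq promoters (GRCm38.p6), read 5′ to 3′ on the minus strand, and capitals mark the GC box GGGCGG. The windows are chr11:70255371-70255620 for Alox12 and chr6:116461179-116461428 for Alox5. Alox12 has more than 1 annotated start. Its span reaches 70255380 in RefSeq, so that the last 10 bases of the window lie within it, and 70255353 in GENCODE M21.
Alox12: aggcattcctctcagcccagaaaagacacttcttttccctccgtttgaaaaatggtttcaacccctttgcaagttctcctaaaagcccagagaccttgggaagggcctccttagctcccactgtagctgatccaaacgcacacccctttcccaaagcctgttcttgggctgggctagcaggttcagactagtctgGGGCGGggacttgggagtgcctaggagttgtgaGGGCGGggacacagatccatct
Alox5: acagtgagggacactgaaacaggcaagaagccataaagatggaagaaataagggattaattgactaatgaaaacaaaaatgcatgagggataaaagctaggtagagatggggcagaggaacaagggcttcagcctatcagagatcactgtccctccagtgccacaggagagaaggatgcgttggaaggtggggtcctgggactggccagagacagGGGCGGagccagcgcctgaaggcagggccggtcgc
Alox12 held 2 GC boxes and Alox5 held 1. Over both strands, 32.7% of 32851 promoter windows of this length held at least 1. An NF-kB motif, GGG and CC with 5 bases of any kind between them, is in 45.8% of windows and was found once in Alox12 and in 2 places in Alox5, 1 of which overlaps its GC box. The other 6 motifs searched on both strands were in neither window. They were AP-1 (TGANTCA), which 6.75% of all windows hold, and STAT (TTCNNNGAA), which 7.02% hold. STAT6, with 4 bases of any kind between TTC and GAA, is held by 5.85%. C/EBP (TTGCNNAA) is held by 9.56% of the windows. The GATA motif, AGATAA, was in 9.99% of windows over the genome. A TATA box, written TATAAA, was in 12.4% of them. These are matches of letters, not measured sites. Windows were at hand for 6 of the 9 genes, not including Alox15, Alox5ap and Cysltr1.

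Among the genes chosen by symbol, Lta4h had the highest level per unit length. Its mean over 12 libraries was 60.5 FPKM (fragments per kilobase, scaled to library size, range 49.6 to 65.0). The next levels were 6.13 FPKM for Alox5ap, 4.88 FPKM for Ltc4s and 3.50 FPKM for Alox12. Alox5 lay at 2.17 FPKM, Cysltr1 at 1.87 FPKM, Alox15 at 1.18 FPKM, Cysltr2 at 0.935 FPKM and Ltb4r1 at 0.836 FPKM. Ranges of neighbours in this order overlapped, except that Lta4h was above all others. In the libraries the FPKM of Lta4h varied 1.31-fold from lowest to highest, those of Alox12 19.1-fold and those of Alox15 51.7-fold, and those of the other 6 genes between 1.75-fold (Alox5) and 3.38-fold (Ltb4r1). Alox12 and Alox15 thus differed in spread from the other genes named in this paragraph before any grouping. Wide spreads were also found in further lipoxygenases of the pathway, which are taken up below. The FPKM of Alox8 varied 32.6-fold, from 1 to 31 counts. Those of Alox12e ran from 0 to 8.05, those of Alox12b from 0 to 1.72 and those of Aloxe3 from 0 to 0.344. Of the other pathway genes taken up below, Mgst3 (516 FPKM), Dpep1 (101 FPKM) and Cotl1 (62.9 FPKM) had higher means than Lta4h. The rest of them had lower means.

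The level of Alox15 needs a limit. The counts and FPKM of Alox15 imply a gene model of 9287 bases, against 2409 bases for its longest GENCODE transcript, a ratio of 3.86 that 0.644% of genes exceeded. RefSeq lists Alox15 at chr11:70344147-70390538 and GENCODE at chr11:70344152-70352031. From a table of counts, the reads cannot be placed within the longer span, and its FPKM would be higher on the shorter model. The ratio was 0.579 to 1.65 for the other 8 genes. Alox5ap, Ltc4s and Cysltr1 each overlap an annotated gene on the other strand (Gm19719, Gm26542 and Gm5127). A strand-specific kit was used but the strand setting of the counting is not given in the sources used here, so reads of these genes and their partners cannot be separated with certainty.

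**Figure D1:**
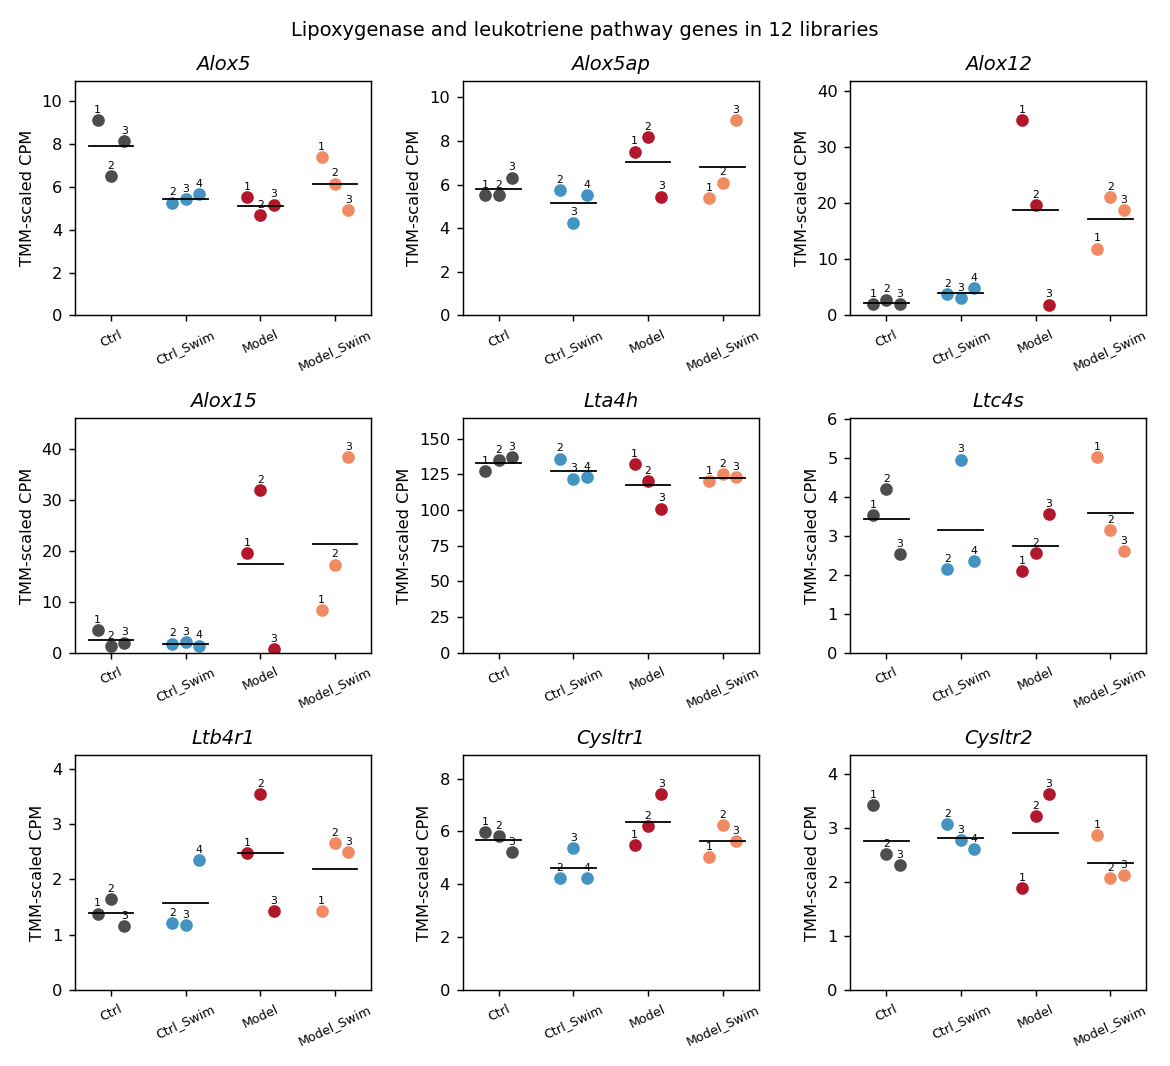
TMM-scaled CPM (vertical axes, each starting at 0) of the 9 genes in the 12 libraries, 1 point per library labelled with its replicate number, with a line at the group mean. Alox12 and Alox15 are high in 5 of the 6 AOM/DSS libraries and low in Model 3, Alox5 has its highest mean in Ctrl, and the other genes overlap between neighbouring groups in the order of their means.

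Between Model and Ctrl, which asks what AOM/DSS does without swimming, Alox12 and Alox15 were higher and Alox5 was lower, while the other 6 genes did not pass the test. The 3 of 9 genes at an adjusted p under 0.05 (edgeR quasi-likelihood test, Benjamini-Hochberg adjustment over all genes) stand against 32.7% of all tested genes, so the count is about what the whole table gave. Over all genes, 16.5% passed as higher and 16.2% as lower. Alox12 and Alox15 also exceeded the study's cutoff of 2-fold, in the higher direction, as did 6.21% of all genes. The median log2 fold change was 0.16 over the 9 genes and 0.01 over all genes. Levels of Alox5 did not overlap between the groups and those of the other 8 genes did, while 44.2% of all genes did not overlap.

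Alox12 was higher in 2 of the 3 Model libraries than in every Ctrl library. Its level was 1.99, 2.83 and 1.98 CPM in Ctrl 1 to 3, and 34.8, 19.7 and 1.95 CPM in Model 1 to 3. It was 3.84, 3.03 and 4.91 CPM in Ctrl_Swim 2 to 4, and 11.9, 21.1 and 18.8 CPM in Model_Swim 1 to 3. In 5 of the 6 AOM/DSS libraries Alox12 was above every untreated library. Model 3 was level with the Ctrl libraries (34 counts against 36 to 52, and 0.643 FPKM against 0.604 to 0.882), so the Model and Ctrl groups overlapped. Model exceeded Ctrl by a log2 fold change of 3.05 ± 0.73 (SE), 8.28-fold, with an adjusted p of 0.0102 from edgeR. Without Model 3 it was 3.60 with an adjusted p of 5.59e-05, and without Model 1 and Model 3 it was 3.09 (Model 2 alone). Of 21 alternative fits, 20 kept the call, with adjusted p-values from 5.59e-05 to 0.0638.

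Alox15 followed a like pattern with a wider spread. Its level was 4.42, 1.25 and 1.98 CPM in Ctrl 1 to 3, and 19.6, 32.0 and 0.746 CPM in Model 1 to 3. In Ctrl_Swim 2 to 4 it was 1.75, 2.02 and 1.38 CPM, and in Model_Swim 1 to 3 it was 8.31, 17.3 and 38.4 CPM. The 5 AOM/DSS libraries other than Model 3 were above all 6 untreated libraries, and Model 3 was the lowest of the 12. Model and Ctrl differed by a log2 fold change of 2.77 ± 0.97 (SE), 6.84-fold, with an adjusted p of 0.0472 from edgeR. This call was close to the threshold and held in 6 of 21 alternative fits, whose adjusted p-values ran from 0.00196 without Model 3 to 0.172. Leaving out any 1 of Ctrl 1, Ctrl 2, Ctrl 3, Model 1, Model 2, Ctrl_Swim 2, Ctrl_Swim 3, Ctrl_Swim 4, Model_Swim 2 or Model_Swim 3 ended it, with log2 fold changes of 2.03 to 3.46, lowest without Model 2. The increases of Alox12 and Alox15 cannot be ranked, since without Ctrl 1 that of Alox15 was 3.46 and that of Alox12 2.99.

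Marker lists of several cell types were set beside both lipoxygenases. The squamous list summed to 1168, 2119 and 93.4 CPM in Model 1 to 3 and to 235, 1228 and 1185 CPM in Model_Swim 1 to 3, and 11 of its 15 genes were higher in Model than in Ctrl. The list was low in Model 3, where Alox12 and Alox15 were low too, and intermediate in Model_Swim 1, where they were the lowest among the other AOM/DSS libraries. Ctrl_Swim 4 broke this order. Its squamous sum of 941 CPM stood beside 4.91 CPM of Alox12 and 1.38 CPM of Alox15, while Model 1, at 1168 CPM, had 34.8 and 19.6 CPM. The epidermal lipoxygenase Alox12e was at 14.2 CPM in Ctrl_Swim 4 and at 5.90 CPM in Model 1.

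The 12 neutrophil markers summed to 11.6 to 14.0 CPM in Ctrl and 15.1 to 32.5 CPM in Ctrl_Swim. They reached 311, 387 and 25.1 CPM in Model 1 to 3 and 40.0, 607 and 418 CPM in Model_Swim 1 to 3, and 8 of the 11 tested were higher in Model than in Ctrl. Lactoferrin (Ltf) gave most of this sum, at 192 CPM in Model 1 and 329 CPM in Model 2. The calprotectin gene S100a9 was at 41.1, 20.6 and 2.87 CPM in Model 1 to 3, against a Ctrl mean of 0.421 CPM. In Model 3 Ltf (0.976 CPM), Camp and Retnlg were below their Ctrl means. The other neutrophil markers were above theirs there, such as Csf3r at 7.52 CPM against 2.73 CPM and Cxcr2 at 1.66 CPM against 0.128 CPM. The neutrophil sum in Model 3 thus does not describe the whole list.

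Eosinophil markers, of interest for Alox15, summed to 4.52 to 9.41 CPM in all 12 libraries and 0 of 5 tested passed in Model against Ctrl (edgeR), with Epx and Ear1 at or near 0. Macrophage markers summed to 473 to 558 CPM in Model, 456 to 533 CPM in Model_Swim, 327 to 347 CPM in Ctrl and 304 to 388 CPM in Ctrl_Swim. They were higher in Model 3 (558 CPM) than in Model 1 (473 CPM), the reverse of Alox12 and Alox15. The platelet list summed to 11.3 to 19.4 CPM in untreated libraries, and to 39.7, 114 and 15.4 CPM in Model 1 to 3 and 19.5, 88.9 and 71.4 CPM in Model_Swim 1 to 3. This followed Ppbp, at 27.2, 102 and 0.517 CPM in Model 1 to 3, while Pf4 was at 6.16, 4.96 and 6.77 CPM there against a Ctrl mean of 5.06 CPM. The part of these cell types in the levels of Alox12 and Alox15 was not tested.

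**Figure D2:**
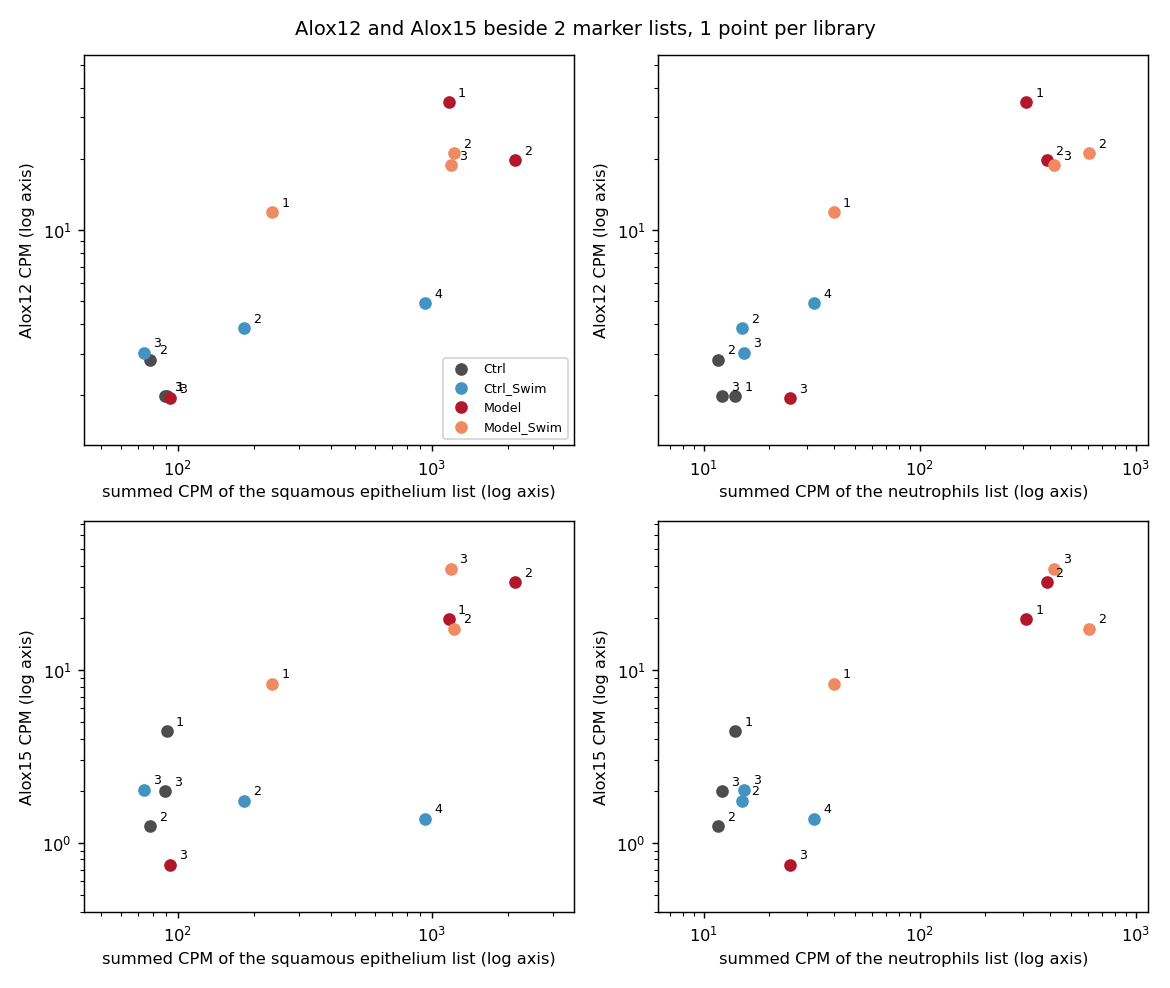
CPM of Alox12 (top) and Alox15 (bottom) against the summed CPM of the squamous epithelium list (left) and the neutrophil list (right), 1 point per library labelled with its replicate number, all axes logarithmic. Model 3 has the lowest Alox12 and Alox15 of the 12 libraries. Its neutrophil sum of 25.1 CPM is above those of all Ctrl libraries and below that of Ctrl_Swim 4. Ctrl_Swim 4 has a squamous sum of 941 CPM with little Alox12 or Alox15.

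In the 5-lipoxygenase branch, the enzyme was lower and its partner was not called. Alox5 was at 9.11, 6.49 and 8.14 CPM in Ctrl 1 to 3, and at 5.52, 4.69 and 5.17 CPM in Model 1 to 3. It was at 5.26, 5.43 and 5.67 CPM in Ctrl_Swim 2 to 4, and at 7.38, 6.15 and 4.93 CPM in Model_Swim 1 to 3. All Model libraries were below all Ctrl libraries, Model 3 included. The log2 fold change was -0.63 ± 0.18 (SE), 0.648-fold, with an adjusted p of 0.0224 from edgeR, and 15 of 21 alternative fits kept the call (0.0155 to 0.0981). Without Ctrl 1 it was -0.49 (adjusted p = 0.0981), without Ctrl 3 it was -0.58 (0.0743) and without Model 2 it was -0.54 (0.0826), none of which passed. With Model 2 alone in its group it was -0.77 (0.0514), and did not pass either.

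Alox5ap was at 5.52, 5.51 and 6.32 CPM in Ctrl 1 to 3, and at 7.51, 8.17 and 5.45 CPM in Model 1 to 3. Model 1 and Model 2 were above the Ctrl libraries and Model 3 was level with the lower 2. The log2 fold change of 0.28 ± 0.22 (SE) had an adjusted p of 0.346 from edgeR.

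The enzymes that act on leukotriene A4 did not pass. Lta4h, which makes leukotriene B4, was at 127, 135 and 137 CPM in Ctrl 1 to 3, and at 132, 120 and 101 CPM in Model 1 to 3, with Model 3 the lowest of the 12 libraries. Its log2 fold change was -0.17 ± 0.09 (SE), with an interval of 2 SE from -0.35 to 0.00 and an adjusted p of 0.147. Leaving out Model 1 gave -0.25 with an adjusted p of 0.0412. Ltc4s, which makes leukotriene C4, was at 3.53, 4.20 and 2.53 CPM in Ctrl 1 to 3 and at 2.09, 2.56 and 3.56 CPM in Model 1 to 3. The groups overlapped and the log2 fold change was -0.32 ± 0.38 (SE) with an adjusted p of 0.541. With 39 to 93 counts per library, Ltc4s was measured less precisely than Lta4h, which had 1768 to 2498.

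Of the receptors, Ltb4r1 came closest to the threshold. It was at 1.38, 1.64 and 1.15 CPM in Ctrl 1 to 3, at 2.47, 3.54 and 1.43 CPM in Model 1 to 3, at 1.21, 1.17 and 2.35 CPM in Ctrl_Swim 2 to 4, and at 1.43, 2.66 and 2.49 CPM in Model_Swim 1 to 3. The 4 highest libraries were Model 1, Model 2, Model_Swim 2 and Model_Swim 3, the next was Ctrl_Swim 4, and these are the 5 libraries with the highest squamous sums. Model and Ctrl differed by a log2 fold change of 0.83 ± 0.41 (SE) with an adjusted p of 0.136, and without Model 3 by 1.12 with an adjusted p of 0.0481. The cysteinyl leukotriene receptors did not pass. Cysltr1 lay at 4.22 to 7.40 CPM over the 12 libraries, with a log2 fold change of 0.16 (2 SE interval -0.18 to 0.50, adjusted p = 0.480). Cysltr2 lay at 1.88 to 3.62 CPM, with a log2 fold change of 0.08 (2 SE interval -0.48 to 0.64, adjusted p = 0.848), and it was -0.10 without Model 3. Among the 9 genes the lipoxygenases Alox12 and Alox15 had Pearson r of 0.89 in log2 CPM over the 12 libraries, and Ltb4r1 had r of 0.79 with Alox12 and 0.72 with Alox15. These libraries share groups, marker content and depth, so the correlations are descriptions.

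**Figure D3:**
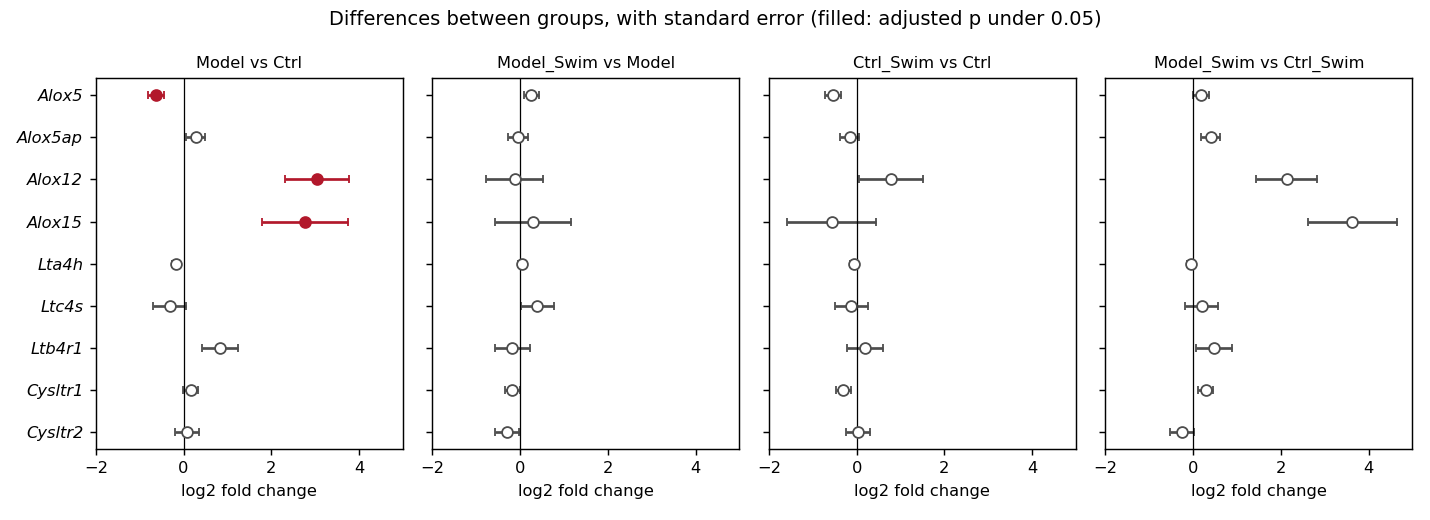
Log2 fold change (horizontal axis) of the 9 genes in 4 comparisons, with bars of 1 standard error and filled points for an adjusted p under 0.05. Alox5, Alox12 and Alox15 are filled in Model against Ctrl, and no point is filled in the other 3 comparisons.

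None of the 9 genes passed the test for swimming under AOM/DSS. Between Model_Swim and Model, 0 of 9 passed in edgeR, against 0.0710% of all genes. At an unadjusted p under 0.05 there were 0, against 13.6% of all genes, and in DESeq2 0, against 2.24%. None of the 9 was without overlap between the groups, against 16.9% of all genes. The median log2 fold change was -0.05, and -0.01 over all genes. The tests allowed wide differences in the genes with the widest spread. Alox12 had a log2 fold change of -0.12 (2 SE interval -1.42 to 1.17, adjusted p = 0.956) and Alox15 of 0.29 (-1.44 to 2.02, adjusted p = 0.914). Both signs turned with the libraries used. Alox12 was 0.66 without Model 1 and 0.06 without Model_Swim 1, and Alox15 was -0.26 without Model 3, -0.47 without Model_Swim 3 and -0.56 with Model 2 alone in its group. For Alox5 the difference was 0.26 (-0.10 to 0.62, adjusted p = 0.558) and for Lta4h 0.05 (-0.12 to 0.23, adjusted p = 0.835). The values of the other genes were 0.39 for Ltc4s, -0.05 for Alox5ap, -0.18 for both Ltb4r1 and Cysltr1, and -0.30 for Cysltr2. The Model libraries entered both this comparison and that of Model with Ctrl.

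Between Ctrl_Swim and Ctrl, which asks about swimming alone, 0 of 9 genes passed in edgeR, against 0.969% of all genes, and 0 in DESeq2, against 4.25%. At an unadjusted p under 0.05 there was 1, Alox5, where 17.6% of all genes had one. All 3 Ctrl_Swim libraries (5.26 to 5.67 CPM) were below all 3 Ctrl libraries (6.49 to 9.11 CPM), with a log2 fold change of -0.54 ± 0.18 (SE) and an adjusted p of 0.178. Alox12 was without overlap in the other direction, at 3.03 to 4.91 CPM against 1.98 to 2.83 CPM, with a log2 fold change of 0.79 ± 0.73 (SE) and an adjusted p of 0.600. These 2 of 9 stand against 27.4% of all genes without overlap. Alox15 had a log2 fold change of -0.57 ± 1.02 (SE) with an adjusted p of 0.808, and of 0.10 without Ctrl 1.

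In the swimming mice, AOM/DSS was again set against its absence. Between Model_Swim and Ctrl_Swim, 0 of 9 genes passed in edgeR, against 5.18% of all genes, while 2 had an unadjusted p under 0.05, against 22.4% of all genes, and 2 passed in DESeq2, against 10.1%. In each case these were Alox12 and Alox15. Both were higher in every Model_Swim library than in every Ctrl_Swim library, 2 of 9 against 32.4% of all genes without overlap. The log2 fold change of Alox12 was 2.13 ± 0.70 (SE), from means of 3.92 and 17.3 CPM, with an adjusted p of 0.102. That of Alox15 was 3.63 ± 1.01 (SE), from means of 1.72 and 21.3 CPM, with an adjusted p of 0.0636. In 21 alternative fits the adjusted p ran from 0.00152 to 0.244 for Alox12 and from 0.00501 to 0.245 for Alox15, with 4 calls each. One of these was the fit without Model 3, a library outside the groups compared that enters the common estimate of spread, with adjusted p-values of 0.00307 and 0.00597. Alox5, at means of 6.15 and 5.45 CPM, had a log2 fold change of 0.17 ± 0.18 (SE).

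The test of whether swimming acted differently with and without AOM/DSS called 0 of 9 genes in edgeR and 0 in DESeq2, where 0% of all genes passed in edgeR and 4.95% in DESeq2. At an unadjusted p under 0.05 there was 1 of the 9, against 19.0% of all genes. The 1 gene was Alox5, with a log2 fold change for swimming of -0.54 in untreated and 0.26 in AOM/DSS mice, a difference of 0.80 ± 0.25 (SE) and an adjusted p of 0.149. Only Ctrl had Alox5 above 6 CPM in all its libraries.

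The 20 other genes of the pathway were taken from a list by role, chosen with earlier results of these data known. The counts below therefore describe this list and are no test of it as a set. Of the 20, 19 were tested, all but Oxgr1, which had 0 to 3 counts. Between Model and Ctrl 10 passed, 7 higher and 3 lower, against the 32.7% given above. Their median log2 fold change was 0.77, and Alox12b lies above it also with its Ctrl group set at 3 counts. DESeq2 called 11 of the 19, against 35.4% of all genes. Without Model 3 the count was 11, without Ctrl 2 it was 6 and without Ctrl 3 it was 5, while the count over all genes went from 5066 to 5620, 3160 and 3273.

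Among the other lipoxygenases, Alox8 was at 3, 3 and 1 counts in Ctrl 1 to 3 and 31, 14 and 6 counts in Model 1 to 3, a log2 fold change of 2.79 ± 0.75 (SE) from few reads (adjusted p = 0.0168). The skin barrier enzyme Alox12b had 0 counts in all Ctrl libraries, which allows up to 0.166 CPM in each, and 31, 31 and 0 counts in Model 1 to 3. Alox12e had means of 0.311 CPM in Ctrl and 6.03 CPM in Model and was at 0 in Model 3, and Aloxe3 was at 0.274 and 0.631 CPM. None of these 3 passed. Alox12b, Alox12e and Aloxe3, like Alox12 and Alox15, were at their lowest or at 0 in Model 3.

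Upstream of the pathway, the phospholipase Pla2g4a, which frees arachidonic acid, fell by 0.30 on the log2 scale (adjusted p = 0.0163), from 71.5 to 79.6 CPM in Ctrl to 56.4 to 68.6 CPM in Model. Cotl1, a binding partner of 5-lipoxygenase, was at 103 and 99.6 CPM. Of the other enzymes that can make leukotriene C4, Mgst3 fell by 0.55 (adjusted p = 0.00707), from 364 to 248 CPM, and Mgst2 had a log2 fold change of -0.20 (adjusted p = 0.266). The exporter Abcc1 was at 63.3 and 68.4 CPM. The genes that trim cysteinyl leukotrienes moved in both directions. Ggt5 rose by 0.48 (adjusted p = 0.0286), Dpep2 rose by 1.27 (adjusted p = 0.0167) and Dpep1 fell by 0.68 (adjusted p = 0.0454), a call that held in 6 of 21 alternative fits, while Ggt1 had 0.77 (adjusted p = 0.281). Ggt1 was at 20.7 and 21.0 CPM in Model 1 and Model 3, the libraries with pancreatic RNA, and at 3.98 CPM in Model 2, and the part of that RNA was not tested. Dpep1 was far more abundant, at 101 FPKM over all libraries against 0.693 FPKM for Dpep2. Like the colon epithelial sum, it was lowest in Model 1 and Model 2. That sum followed Muc2 (3836, 7920 and 12815 CPM in Model 1 to 3) and Car1 (410, 277 and 4731 CPM). Epcam, at 1473, 1282 and 1293 CPM, did not follow it. The other listed genes differed less in CPM and not all in this order. The part of the epithelium in the level of Dpep1 was not tested.

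Of the other receptors for lipoxygenase products, Fpr2 (log2 fold change 3.36, adjusted p = 0.0325, 0 to 5 counts in Ctrl and 11 to 36 in Model), Gpr132 (1.61, adjusted p = 0.00242) and Cmklr1 (0.82, adjusted p = 0.00568) rose, and all 3 were above every Ctrl library in Model 3 as well. Gpr132 and Cmklr1 are made by myeloid cells among others, and 8 of the 12 macrophage markers were higher and 1 was lower. Of other immune markers, 9 of 10 B cell, 8 of 9 T cell and 5 of 11 mast cell genes passed as higher. Of the eosinophil markers, 0 of 5 passed. Over all genes, 16.5% passed as higher. The mast cell sum overlapped, at 127 to 179 CPM in Ctrl and 128 to 186 CPM in Model. Kit had the highest means of this list and was lower in Model (88.7 CPM) than in Ctrl (112 CPM). Every other measured gene of the list had a higher mean in Model, such as Cpa3 at 4.63 CPM against 1.08 CPM. The B cell sum was 43.0 to 90.5 CPM in Ctrl, 59.1 to 188 CPM in Ctrl_Swim, 175 to 207 CPM in Model and 59.4 to 95.3 CPM in Model_Swim, and the T cell sum was 30.7 to 39.3, 38.4 to 83.1, 73.0 to 110 and 62.0 to 70.7 CPM. The part of these cells was not tested. Ltb4r2 had 0.09 (adjusted p = 0.886). Of the enzymes that break down leukotriene B4, Cyp4f18 rose by 0.87 (adjusted p = 0.0249) and Ptgr1 had -0.16 (adjusted p = 0.469).

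Of the 10 calls between Model and Ctrl, those of Mgst3, Cmklr1 and Gpr132 held in 21 of 21 alternative fits. Without Model 1, Alox8 (2.07, adjusted p = 0.0621), Fpr2 (3.05, adjusted p = 0.0695) and Dpep1 (-0.40, adjusted p = 0.0511) did not pass. Without Model 3, Ggt5 did not (0.34, adjusted p = 0.0790). With Model 2 alone in its group, Alox8 (2.49, adjusted p = 0.0630), Fpr2 (2.15, adjusted p = 0.278) and Ggt5 (0.32, adjusted p = 0.187) did not. Without Model 2, the calls of Pla2g4a, Dpep1, Dpep2 and Cyp4f18 were lost. Without Ctrl 1 those of Ggt5, Dpep1 and Fpr2 were lost, without Ctrl 2 those of Pla2g4a, Ggt5, Dpep1 and Cyp4f18, and without Ctrl 3 those of Alox8, Dpep1, Dpep2, Fpr2 and Cyp4f18. Dpep1 was also lost without any 1 of the 6 libraries of swimming mice, with adjusted p-values over its alternatives of up to 0.132. The spans of Fpr2, Dpep1 and Dpep2 each overlap a protein-coding gene annotated on the same strand (Fpr3, Gm20388 and Dpep2nb). How far this touched their counts was not tested.

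Between Model_Swim and Model, 0 of the 19 passed in edgeR. At an unadjusted p under 0.05 there were 3, against the 13.6% of all genes, and 1 passed in DESeq2, against 2.24%. The 3 at an unadjusted p were Alox8, Mgst3 and Dpep2. Mgst3, the gene DESeq2 called, was at 221, 228 and 295 CPM in Model 1 to 3 and at 330, 314 and 347 CPM in Model_Swim 1 to 3, a log2 fold change of 0.41 ± 0.12 (SE) with an adjusted p of 0.217 from edgeR. Alox8 was at 2, 2 and 1 counts in Model_Swim 1 to 3, below the 31, 14 and 6 of Model, with a log2 fold change of -3.26 ± 0.79 (SE) and an adjusted p of 0.147. Without Model 3, Alox8 passed as lower and Mgst2 and Mgst3 as higher, while the count over all genes went from 11 to 882. The fit with Model 2 alone in its group is no test of replicated Model libraries.

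**Figure D4:**
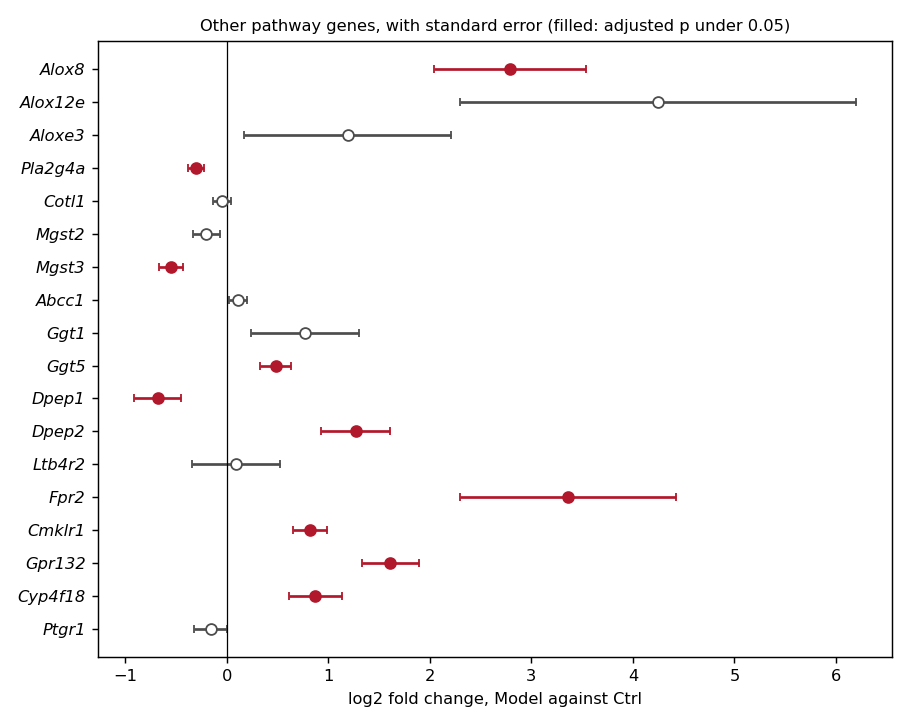
Log2 fold change (horizontal axis) between Model and Ctrl of 18 other pathway genes, ordered by role, with bars of 1 standard error and filled points for an adjusted p under 0.05. Alox8 and the receptors Fpr2, Gpr132 and Cmklr1 rose, Pla2g4a, Mgst3 and Dpep1 fell, and Alox12b is left out because it had no counts in Ctrl.

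The genes whose levels followed each member most closely were ranked by Pearson r of log2 CPM over the 12 libraries among 13902 genes with a mean of at least 1 CPM. For Alox12 they were Wnt10a (0.978), Serpinb11 (0.974) and Lcn2 (0.964), and for Alox15 they were Anxa8 (0.951), Tmprss11g (0.942) and Tnfrsf8 (0.935). Ltb4r1 was followed by Clip4 (0.954), Serpinb8 (0.941) and Tfap2a (0.938). Serpinb11 and Tmprss11g are known from stratified epithelia, and Lcn2 from neutrophils and inflamed epithelium. For Lta4h the closest was Prdx2 (0.946), for Cysltr1 Tnc (0.893), for Ltc4s Plcb1 (0.893), for Alox5ap Zbtb42 (0.887), for Alox5 Galnt3 (0.881) and for Cysltr2 Ern2 (0.836). Being the highest of 13902 values over 12 libraries that share groups and markers, these r are descriptions.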

How the data were processed

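After trimming (Trimmomatic) and alignment to GRCm38.p6 (HISAT2), the authors deposited raw counts per gene from HTSeq-count and FPKM values from Cufflinks. Tool versions, annotation release and the strand setting are not given in the sources used here. Counts were scaled by TMM and tested in R 4.3.3 with edgeR 4.0.16 (quasi-likelihood, 1 fit of the 4 groups, filterByExpr with a minimum count of 10, Benjamini-Hochberg over 15484 genes). An adjusted p under 0.05 passed. SE is the log2 fold change over the root of F. Log2 CPM used a prior count of 2. Alternatives were DESeq2 1.42.0 (the study's tool), its size factors, no filter, only the groups compared, a replicate block, limma 3.58.1 on log2(FPKM + 1) (mean FPKM of at least 0.5, or no filter) and on log2(FPKM + 0.1), the study's cutoffs, 12 fits without 1 library, and 1 without Model 1 and Model 3 (a Model group of 1 library). Counts were also simulated for 13780 genes with the same spread setting for every gene. Between Model and Ctrl, 200 of 200 genes changed 4-fold were recovered with 14 others. The members and lists were chosen with earlier results of these data known. All 9 members, every other pathway gene past a test and the 3 genes most like each member were named. Positions are from GENCODE M21 (GRCm38), promoters from RefSeq. Count floors cover counting error only, while SE and intervals of 2 SE include the spread between libraries.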

Additional observations from a re-analysis of the deposited data

Results flagged for a closer look

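Alox8 and Dpep2 had differences in opposite directions without overlap between libraries. The share of all genes that meet this rule was not counted. In a single comparison, 16.9% to 44.2% of all genes were without overlap. The difference itself was called in neither by edgeR's interaction test. Alox8 had a log2 fold change of 2.79 between Model and Ctrl and of -1.65 between Model_Swim and Ctrl_Swim. The interaction was -4.44 ± 1.13 (SE) with an adjusted p of 0.116 (0.0319 to 0.409 over 17 alternative fits, 1 of which called it), from 1 to 31 counts per library. Dpep2 had a log2 fold change of -0.80 between Model_Swim and Model and of 0.73 between Ctrl_Swim and Ctrl. Its interaction was -1.52 ± 0.48 (SE) with an adjusted p of 0.147 (0.0720 to 0.430 over 20 alternative fits), from 17 to 63 counts per library.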

How the results depend on the processing

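Between Model and Ctrl, 3 members passed, 1 in a fit of only the groups compared, 0 in limma on log2(FPKM + 1) without a filter, and 1 to 4 with a library left out (1 without Ctrl 1, Ctrl 3 or Model 2). Over all genes 5066 passed, 3337 with only the groups compared, 4432 in that limma fit and 3160 to 5620 with a library left out. Between Model_Swim and Ctrl_Swim, 0 members passed, 2 in DESeq2, 2 with only the groups compared, and 0 to 2 with a library left out. The counts over all genes were 802, 1562, 1289 and 170 to 1459 in the same order. In the other comparisons the count of members stayed at 0 in every fit. Of the other pathway genes, 10 passed between Model and Ctrl, 6 with only the groups compared, 4 at the study's cutoffs and 5 to 11 with a library left out. At the study's cutoffs 1150 of all genes passed. Between Model_Swim and Model, 0 of the other pathway genes passed, 1 in DESeq2, and 0 to 3 with a library left out. Over all genes 11 passed there, 347 in DESeq2 and 6 to 882 with a library left out.

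Signs turned for values that did not pass. Between Model_Swim and Model, Alox12 (-0.12) was 0.19 under the replicate block, 0.28 in limma on log2(FPKM + 1) with and without a filter and 0.54 on log2(FPKM + 0.1), and -0.65 to 0.66 with a library left out. Alox15 (0.29) was -0.56 without Model 1 and Model 3 and -0.47 to 1.04 with a library left out. The ranges with a library left out were -0.31 to 0.08 for Alox5ap, -0.04 to 0.14 for Lta4h and -0.44 to 0.15 for Ltb4r1. For Cysltr2 between Model and Ctrl the range was -0.10 to 0.33, and for Alox15 between Ctrl_Swim and Ctrl -0.88 to 0.10. The cause was not tested.

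Same-numbered libraries did not deviate together throughout (r of -0.261 to 0.405), so numbers were not taken as pairs. In some cases r was above the highest with another number, as for Model_Swim 2 and Model 2 (0.405 against 0.294). In others it was below, as for Model_Swim 1 and Model 1 (-0.261 against 0.351). Under the replicate block 2 members passed between Model and Ctrl (Alox5 and Alox12, not Alox15) and 0 elsewhere. The median of all genes moved by over 0.1 only in limma on log2(FPKM + 0.1), to 0.108 between Ctrl_Swim and Ctrl and to -0.107 in the interaction. Members other than Lta4h had 13 to 724 counts per library. Recovery was simulated for 4-fold changes only, with the same spread setting for every gene. Recovery of smaller differences is therefore not known. Nor is it known for genes as variable as Alox12 and Alox15, which varied 17.8-fold and 42.9-fold within Model.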
